A study of Homo sapiens with 6 samples.

Results

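The poly(rC)-binding proteins PCBP1, PCBP2, PCBP3 and PCBP4 and the related heterogeneous nuclear ribonucleoprotein K (HNRNPK) were examined gene by gene and transcript by transcript in K562 cells with PCBP1 knockdown (KD). The members were chosen by gene name: 5 genes of 62252, with 101 annotated transcripts of 251612 that could be placed in GENCODE release 44. PCBP1 held 1 of these transcripts, PCBP2 26, PCBP3 22, PCBP4 18 and HNRNPK 34. K562 is an established human erythroleukemia line. All cells carried a lentiviral pLKO.1 hairpin, directed against luciferase in the control group (shCtrl) and against PCBP1 in the KD group (shPCBP1), after transduction with 8 µg/mL polybrene and 4 days in 3 µg/mL puromycin. Poly-A RNA was sequenced as 150-cycle read pairs in 3 libraries of each group. KD rested on a single PCBP1 hairpin, and the sample labels do not say whether the libraries of a group came from separate cultures, so the p-values below measure the spread between these libraries, which may be technical.

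All 5 proteins recognise C-rich single-stranded RNA through KH domains, a compact RNA-binding fold. PCBP1 and PCBP2 act in pre-mRNA splicing, mRNA stability and translation, and they also bind iron in the cytosol and pass it to ferritin and to iron-dependent enzymes. PCBP1 is an intronless gene, whereas PCBP2, PCBP3, PCBP4 and HNRNPK have introns and are alternatively spliced. HNRNPK is an abundant nuclear protein that binds the same kind of sequence and takes part in transcription as well as splicing.

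The libraries held between 67066747 and 140522444 estimated read counts, and the shCtrl libraries were deeper on the whole (83033656 or more) than the shPCBP1 libraries (85121124 or fewer). The 11 markers fixed for K562, among them GATA1, KLF1 and the embryonic and fetal globins, were all at 36.6 TPM (transcript abundance scaled to transcript length and to a fixed library total) or higher in every library. Among markers of other blood cells, MS4A1, PAX5, CD3E, CD2, CD14 and CSF1R were at 0.450 TPM or lower, while CD3D reached 73.7 TPM and LYZ 52.6 TPM. TPM is a relative abundance, so levels can be set side by side between genes. In bulk RNA of this kind, fewer cells with a transcript and less of it per cell cannot be told apart.

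On hg38, PCBP1 lies on chromosome 2 (70087477 to 70089203, plus strand), PCBP2 on chromosome 12 (53452102 to 53481162, plus strand) and PCBP3 on chromosome 21 (45643694 to 45942454, plus strand). PCBP4 lies on chromosome 3 (51957454 to 51974016, minus strand) and HNRNPK on chromosome 9 (83968083 to 83980631, minus strand).

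In control cells the level order was HNRNPK, PCBP2, PCBP1, PCBP4 and PCBP3. HNRNPK stood at 420, 408 and 400.0 TPM in the 3 shCtrl libraries, PCBP2 at 391, 400.4 and 374 TPM, and PCBP1 at 328, 320.3 and 305 TPM. The values of HNRNPK and PCBP2 overlapped across libraries. Within each shCtrl library HNRNPK was slightly higher, with ratios to PCBP2 of 1.08, 1.02 and 1.07, and this order was not tested. The values of PCBP1 lay below both. By mean TPM HNRNPK, PCBP2 and PCBP1 ranked 280, 293 and 345 among 34823 genes with any signal. PCBP4 was far lower, at 4.85, 4.25 and 5.46 TPM, and PCBP3 was at 0.721, 0.165 and 0.416 TPM. In shPCBP1 cells HNRNPK (456, 441 and 435 TPM) and PCBP2 (326, 322 and 322 TPM) were separated, and PCBP1 dropped to rank 2492.

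**Figure D1:**
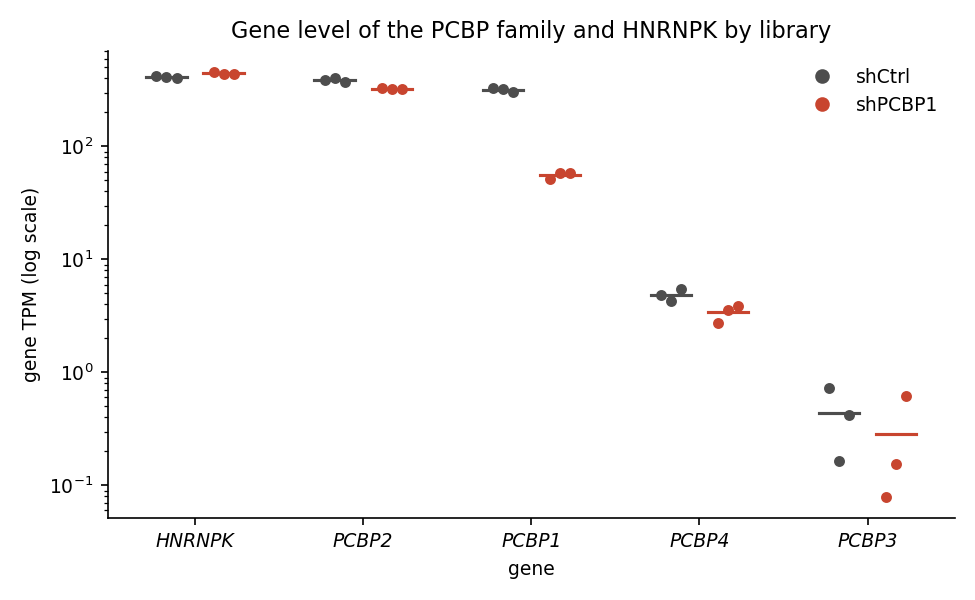
Gene level (TPM, log scale) of the 5 members in each of the 3 shCtrl (grey) and 3 shPCBP1 (red) libraries, with a bar at each group mean. PCBP1 falls from between 305 and 328 TPM to between 51.9 and 58.5 TPM, while PCBP2 is at 321.6 TPM or higher and HNRNPK at 400.0 TPM or higher in every library.

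PCBP1, the target of the hairpin, was lower in every KD library. Its gene TPM was 328, 320.3 and 305 in shCtrl and 51.9, 58.5 and 58.4 in shPCBP1. The groups did not overlap. Estimated counts summed per gene and tested with DESeq2 gave a log2 fold change of -2.47 (SE 0.0439), with a p-value too small to be stored as other than 0, which left 18.1% of the control level (95% interval 17.04 to 19.2%). Of the 5 members it was the only one past an absolute log2 fold change of 1 together with an adjusted p under 0.05 and a mean normalized count over 10, a criterion that 235 of 17095 genes (1.37%) met. PCBP1-AS1, a long noncoding RNA annotated on the opposite strand of the PCBP1 locus, did not pass (0.12 on the log2 scale, SE 0.0787, DESeq2 adjusted p = 0.241). As letters, 70.5% of the distinct 31-base stretches of the PCBP1 transcript also occur in PCBP1-AS1 in reverse complement, and strand handling in the quantification was not given in the sources used here.

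PCBP2, the closest relative of PCBP1, was lower in KD cells by a smaller amount. Its gene TPM went from 391, 400.4 and 374 to 326, 322 and 322, with no overlap between the groups. The log2 fold change was -0.24 (SE 0.0321, DESeq2 adjusted p = 2.47e-12), which put PCBP2 at 84.6% of control (95% interval 81.0 to 88.4%). PCBP1 and PCBP2 together went from 706 ± 23.6 TPM (SD, n = 3) to 380 ± 1.61 TPM (SD, n = 3). PCBP1 made up 45.0% ± 0.591 of their sum in shCtrl and 14.8% ± 0.933 in shPCBP1 (SD, n = 3 each). The transcripts were similar in letters: the coding sequence of PCBP1-201 aligned to that of PCBP2-202 with 83.5% identity over 1065 aligned bases. Even so, only 3 of 1697 distinct 31-base stretches of PCBP1 occur in any PCBP2 transcript. The longest run of letters that the aligned pair of coding sequences share is 33 bases, shown because it is the longest stretch in which these coding sequences cannot be told apart.

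Longest run shared by PCBP1-201 and PCBP2-202: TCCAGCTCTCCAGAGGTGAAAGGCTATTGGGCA

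HNRNPK was higher in KD cells. Its gene TPM rose from 420, 408 and 400.0 to 456, 441 and 435, and the groups did not overlap. The log2 fold change was 0.14 (SE 0.0371, DESeq2 adjusted p = 0.00111), or 110% of control (95% interval 105 to 116%). The ratio of HNRNPK TPM to PCBP2 TPM was 1.06 ± 0.0307 in shCtrl and 1.37 ± 0.0260 in shPCBP1 (SD, n = 3 each). HNRNPK-AS1, annotated on the opposite strand, had a mean normalized count of 29.6 and a log2 fold change of 0.15 (SE 0.582), with no adjusted p. The 5 HNRNPK pseudogenes, HNRNPKP1 to HNRNPKP5, did not pass the count minimum and were not tested. Of the 31-base stretches of HNRNPK, 21.0% occur in other genes. HNRNPKP4 holds 8.36% of them, HNRNPKP2 5.75% and HNRNPK-AS1, in reverse complement, 4.64%.

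PCBP4 was lower in KD cells from a low starting level. Gene TPM was 4.85, 4.25 and 5.46 in shCtrl and 2.76, 3.58 and 3.85 in shPCBP1, so the groups lay apart. The log2 fold change was -0.55 (SE 0.127, DESeq2 adjusted p = 0.000104), or 68.1% of control (95% interval 57.4 to 80.9%). ABHD14B, which encodes an alpha/beta hydrolase and overlaps PCBP4 on the same strand, fell by 0.72 on the log2 scale (SE 0.0586, DESeq2 adjusted p = 7.10e-32). Of the 31-base stretches of PCBP4, 0.617% also occur in ABHD14B, and the part of shared reads in the PCBP4 value was not tested. ENSG00000272762, on the same strand, holds another 5.92% of them and did not pass the count minimum. ABHD14A, on the opposite strand, did not pass (-0.24 on the log2 scale, SE 0.149, DESeq2 adjusted p = 0.227). GPR62, also on the opposite strand, had a mean normalized count of 3.05, a log2 fold change of 0.81 (SE 2.02) and no adjusted p.

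PCBP3 was barely detected. Its estimated counts were 23, 7 and 29 in shCtrl and 2, 3 and 9 in shPCBP1. The log2 fold change of -1.29 carried an SE of 0.963, DESeq2 gave no adjusted p, and a change of PCBP3 was not detectable at this depth. Of the RNAs overlapping PCBP3, ENSG00000275139 had a mean normalized count of 5.999 and ENSG00000286886 of 2.91, and neither had an adjusted p.

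All 4 members with an adjusted p passed 0.05, 1 higher and 3 lower. Among all 17095 genes with an adjusted p, 31.2% passed, 17.7% higher and 13.5% lower, so passing was common in this comparison. The normalized counts of all 4 members did not overlap between groups, as for 44.2% of all genes.

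**Figure D2:**
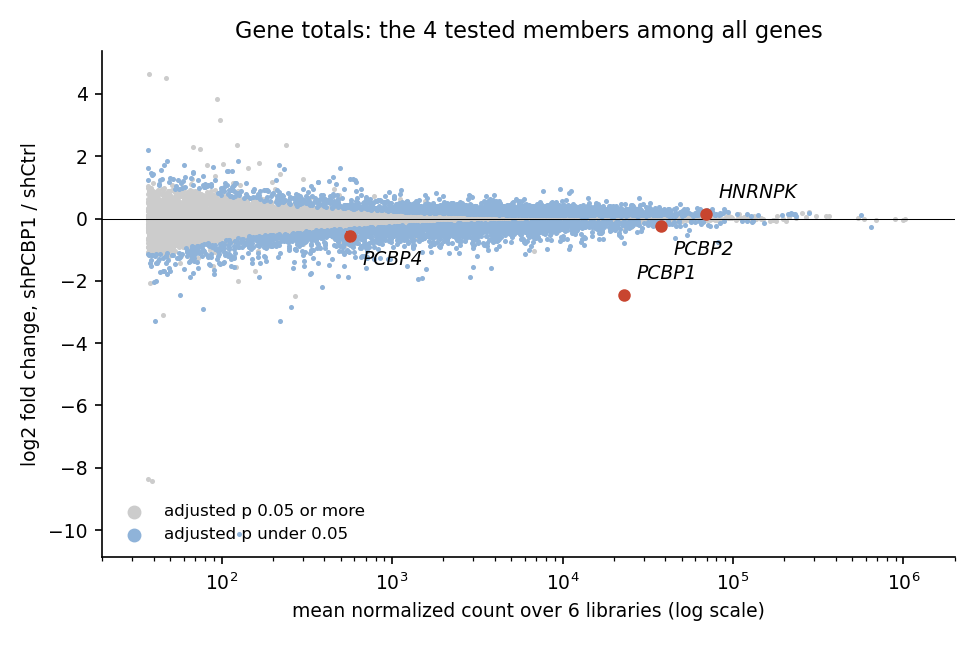
Log2 fold change of gene totals (shPCBP1 over shCtrl) against mean normalized count (log scale) for the 17095 genes with an adjusted p, blue where it is under 0.05. The 4 tested members are in red with bars of 1 SE, mostly hidden by the points, and PCBP1 lies at -2.47 while PCBP2, PCBP4 and HNRNPK lie within the cloud of other genes.

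At the PCBP2 locus, MAP3K12, a kinase gene that runs into the 3′ end of PCBP2 from the opposite strand, rose by 0.25 on the log2 scale (SE 0.105), just inside the threshold (DESeq2 adjusted p = 0.0498). Because 17.7% of the 31-base stretches of PCBP2 occur in MAP3K12 in reverse complement, the values of both genes are uncertain. ENSG00000257379, a long noncoding RNA on the PCBP2 strand, did not pass (-0.20 on the log2 scale, SE 0.223, DESeq2 adjusted p = 0.548). It holds 13.0% of the 31-base stretches of PCBP2 on the same strand, and the part of shared reads was not tested. PCBP2-OT1 (mean normalized count 30.5), PCBP2P1 (12.1) and PCBP2P4 (1.73) had no adjusted p.

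Other RNA-binding proteins of the same fold moved little. Of 38 KH-domain genes listed from knowledge of the family, 37 were in the annotation (GLD1 was not) and 32 had an adjusted p, of which 15 rose, 3 fell and 14 did not pass, and none passed an absolute log2 fold change of 1. Of the 32, 56.25% passed, beside 31.2% of all genes (17.7% higher and 13.5% lower). The median log2 fold change was 0.10 over the 32, beside 0.0019 over all genes. The largest rises were those of MEX3D, an RNA-binding ubiquitin ligase (log2 fold change 0.43, SE 0.0635), IGF2BP1, an mRNA-stabilising protein (0.32, SE 0.0410), and PNO1, a ribosome assembly factor (0.30, SE 0.0640). The falls were MEX3B (-0.21, SE 0.0885), ASCC1 (-0.18, SE 0.0731) and FXR1, a relative of the fragile X protein (-0.11, SE 0.0370). With edgeR in place of DESeq2, 12 rose and 1 fell, and with transcript length offsets 11 rose and none fell.

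A list of 28 genes for proteins that work with poly(C)-binding proteins or bind pyrimidine tracts, 27 of them in the annotation (UNR was not), had 14 rises and no fall at an adjusted p under 0.05, while 13 did not pass. As given above, 31.2% of all genes passed. With size factors from the trimmed mean of M-values (TMM), 12 rose and 1 fell. In the edgeR fit only 10 of the 27 passed, all as rises. The median log2 fold change of the list in the main DESeq2 fit was 0.09. U2AF2, the splicing factor that recognises the polypyrimidine tract, rose by 0.37 on the log2 scale (SE 0.0420, DESeq2 adjusted p = 1.84e-16). DHX9, an RNA helicase, rose by 0.30 on the log2 scale (SE 0.0470, DESeq2 adjusted p = 4.39e-09), and PTBP1, the polypyrimidine tract-binding protein, by 0.29 (SE 0.0351, DESeq2 adjusted p = 3.83e-15).

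PCBP2 was carried by several protein-coding transcripts at once. PCBP2-222 made up 26.1% ± 0.510 of the PCBP2 TPM in shCtrl, PCBP2-202 21.3% ± 0.523, PCBP2-201 17.4% ± 1.26, PCBP2-213 12.6% ± 0.629 and PCBP2-223 5.85% ± 0.746 (SD, n = 3 each). Together the 5 held 82.6% of the gene over all libraries. None of them holds a 31-base stretch that is found in no other annotated PCBP2 transcript, so each share rests on the joint estimate of the quantification software. The transcripts differ in whether they use the first exon that ends at position 53452376 or the one that ends at 53454869 of chromosome 12 (hg38), in a cassette exon of 93 bases, in smaller cassette exons of 42 and 39 bases, and in tandem splice acceptors 12 bases and 3 bases apart.

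The lower PCBP2 level was visible across its transcripts. Of 22 PCBP2 transcripts with a mean of at least 0.1 TPM, 16 were lower and 6 higher in shPCBP1, and for 9 the groups lay apart in the lower direction, beside 10.7% of all 101044 transcripts tested, and for 2 in the higher direction, beside 9.99%. In a limma fit of log2(TPM + 0.1), 3 of the 22 passed an adjusted p of 0.05, all lower, beside 1.14% of all transcripts (0.643% lower and 0.498% higher). PCBP2-222 had 101, 107 and 96.0 TPM in shCtrl and 82.7, 82.3 and 80.6 TPM in shPCBP1 (log2 fold change -0.30, SE 0.0453, limma adjusted p = 0.0402). PCBP2-201 had 72.4, 64.2 and 65.4 TPM against 49.1, 52.4 and 50.4 TPM (-0.41, SE 0.0582, limma adjusted p = 0.0362). PCBP2-210, a shorter model that starts within the gene, had 8.37, 7.78 and 8.13 TPM against 4.86, 5.21 and 4.86 TPM (-0.69, SE 0.0950, limma adjusted p = 0.0332). All 3 were lower in every KD library than in any control library. With 1 library left out, PCBP2-201 (limma adjusted p between 0.0838 and 0.119) and PCBP2-210 (between 0.0911 and 0.128) passed in none of 6 fits, and PCBP2-222 (between 0.0484 and 0.137) passed in 1, that without shCtrl replicate 3. PCBP2-202 (80.8, 86.7 and 80.4 against 71.3, 68.8 and 72.3 TPM) also lay apart and did not pass (limma adjusted p = 0.0842). It passed as lower in 2 of 6 alternative settings, and in none of 6 fits without 1 library (limma adjusted p between 0.143 and 0.216). PCBP2-213 overlapped between the groups (limma adjusted p = 0.660).

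The mix of major PCBP2 transcripts was nearly the same in both groups. The shares in shPCBP1 were 25.3% ± 0.291 for PCBP2-222, 21.9% ± 0.521 for PCBP2-202, 15.7% ± 0.616 for PCBP2-201, 14.2% ± 1.56 for PCBP2-213 and 4.88% ± 0.664 for PCBP2-223 (SD, n = 3 each). Differences from shCtrl ranged from -1.69 to 1.53 percentage points, and none of the 5 passed in a limma fit of the log2 ratio of the transcript to the rest of its gene (limma adjusted p between 0.567 and 0.861). The share of protein-coding transcripts in PCBP2 was 94.7% ± 0.526 in shCtrl and 94.6% ± 0.240 in shPCBP1 (SD, n = 3 each, limma adjusted p = 0.917, beside 0.115% of 8709 genes that passed).

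**Figure D3:**
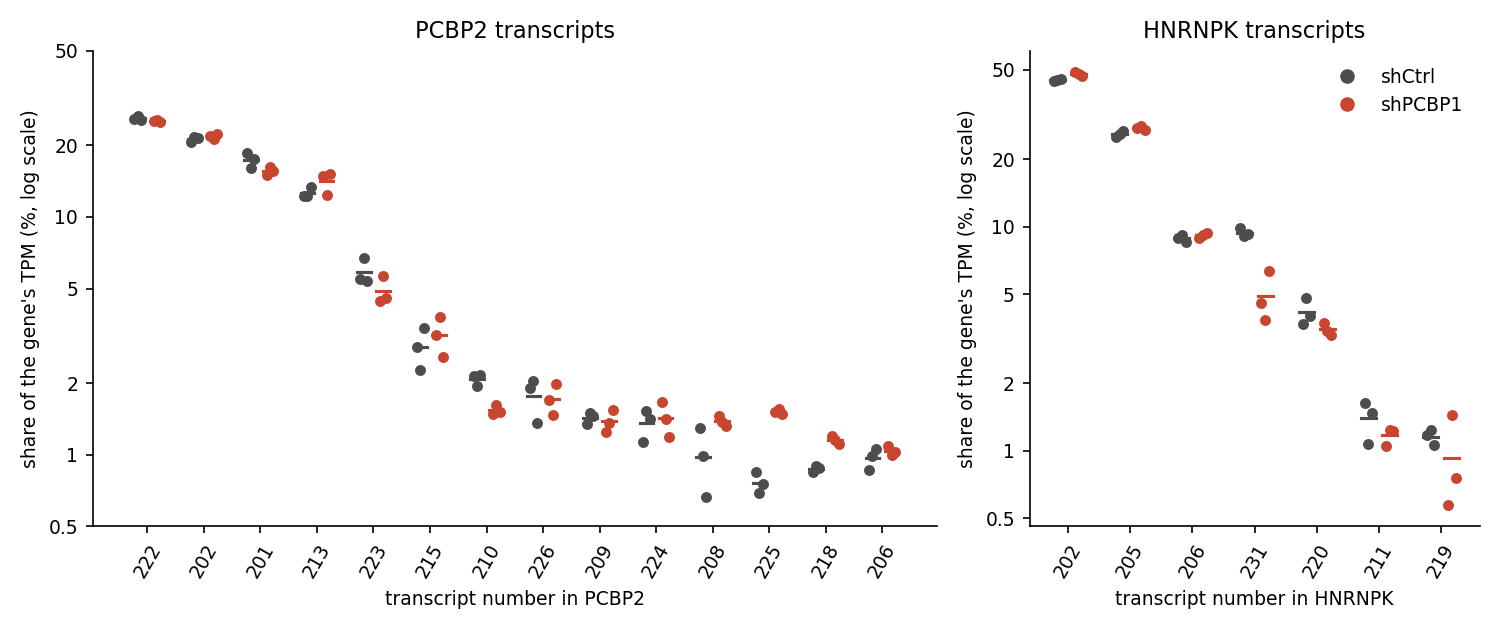
Share of the gene's TPM (percent, log scale) held by each PCBP2 (left) and HNRNPK (right) transcript with a mean share of at least 1%, per library, with a bar at each group mean. The groups lie apart for 5 of 14 PCBP2 and 3 of 7 HNRNPK transcripts, as for 17.9% of all transcripts tested. PCBP2-225 goes from between 0.690 and 0.849% to between 1.49 and 1.56%, and HNRNPK-231 from between 9.07 and 9.83% to between 3.82 and 6.31%. PCBP2-210 goes from between 1.94 and 2.17% to between 1.49 and 1.62%, and PCBP2-218 from between 0.845 and 0.894% to between 1.11 and 1.20%. Neither of these 2 passed on its share (limma adjusted p = 0.214 and 0.205).

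A minor PCBP2 transcript, PCBP2-225, took a larger share in KD cells. It had 0.849, 0.690 and 0.756% of PCBP2 in the shCtrl libraries and 1.52, 1.56 and 1.49% in the shPCBP1 libraries, with the groups far apart relative to their spread. The log2 ratio to the rest of PCBP2 rose by 0.99 (SE 0.109, limma adjusted p = 0.0407). It was the only member transcript of 35 tested to pass on its share, beside 0.329% of all 73264 transcripts tested (0.162% higher), and the difference of 0.756 percentage points was under the 5 points used as a size limit, which 0.212% of transcripts also passed. Its level was 3.32, 2.76 and 2.83 TPM in shCtrl and 4.95, 5.01 and 4.79 TPM in shPCBP1 (log2 fold change 0.71, SE 0.130), which did not pass over all transcripts (limma adjusted p = 0.0691). That level passed in 2 of 6 alternative settings, and in none of 6 fits without 1 library (limma adjusted p between 0.125 and 0.190). The share did not pass when any 1 of the 6 libraries was left out (limma adjusted p between 0.0678 and 0.130) or when no filter on shares was used (limma adjusted p = 0.233).

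PCBP2-225 ends in a last exon of its own, 1202 bases long at positions 53474869 to 53476070 of chromosome 12, inside the intron before the usual last exon of PCBP2. The annotated coding sequence of PCBP2-225, a model that starts within the gene, runs into that exon, so the annotated protein has another C-terminal end. Summed by coding sequence, it was the only member isoform of 25 tested with a limma adjusted p under 0.05 (0.0272), with a difference under the 5-point limit, beside 0.578% of 35495 protein isoforms (0.307% higher). Unlike the major transcripts, PCBP2-225 has 1202 distinct 31-base stretches found in no other PCBP2 transcript. The splice acceptors of both last exons are printed because the transcripts part there, on the plus strand of hg38, with the last 50 intron bases in lower case and the first coding bases of the exon in capitals. The intron ahead of the PCBP2-225 exon (chr12:53474819-53474928) is 86% C or T, of which C is 36% of all 50 bases, and that ahead of the usual exon (chr12:53479356-53479439) is 50% C or T and 18% C.

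PCBP2-225 last exon: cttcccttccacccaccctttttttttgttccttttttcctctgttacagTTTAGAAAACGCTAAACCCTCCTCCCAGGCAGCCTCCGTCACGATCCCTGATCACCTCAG
PCBP2-202 last exon: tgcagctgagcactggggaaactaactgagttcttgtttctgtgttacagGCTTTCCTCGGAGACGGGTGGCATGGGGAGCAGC

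Grouped by last exon, a grouping added after the data were seen, the usual last exon of PCBP2 went from 94.4% ± 0.649 to 93.5% ± 0.730 (SD, n = 3 each, limma adjusted p = 0.615). The last exon of PCBP2-225 had the values given above and a limma adjusted p of 0.0569 over all last exons, of which 0.13% passed.

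No cassette exon of PCBP2 passed. The 93-base exon was included in 57.2, 58.3 and 57.4% of the TPM that included or skipped it in shCtrl, and in 58.0, 58.0 and 57.7% in shPCBP1. These values overlapped, and the log2 ratio of inclusion to skipping differed by 0.016 (SE 0.0927, limma adjusted p = 0.969). The 39-base exon was included in 87.0, 85.0 and 87.1% in shCtrl and 89.2, 87.4 and 89.3% in shPCBP1. The groups lay apart, as for 7.01% of all cassette exons in that direction, and the difference did not pass (log2 ratio 0.30, SE 0.140, limma adjusted p = 0.477). The 42-base exon, taken between the 93-base exon and the exon after it, went from 98.1% ± 0.607 to 97.4% ± 0.142 (SD, n = 3 each, limma adjusted p = 0.459). Between the flanking exons that skip the 42-base exon, the 93-base exon was included in 18.9, 16.9 and 11.0% in shCtrl and 21.0, 18.9 and 20.6% in shPCBP1, which overlapped (limma adjusted p = 0.624). None of the 12 member cassette exons tested passed, beside 0.354% of 19779 exons, and 1 of them had an unadjusted p under 0.05.

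The 93-base exon is printed with its acceptor because it divides PCBP2 most evenly among its cassette exons. It lies at positions 53464760 to 53464852 of chromosome 12, is in frame, and appears in capitals after 50 intron bases (chr12:53464710-53464852, plus strand, hg38). C makes up 26% of those 50 bases, beside a median of 22% (quartiles 16 and 30%) over 48752 annotated cassette exons.

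PCBP2 exon of 93 bases: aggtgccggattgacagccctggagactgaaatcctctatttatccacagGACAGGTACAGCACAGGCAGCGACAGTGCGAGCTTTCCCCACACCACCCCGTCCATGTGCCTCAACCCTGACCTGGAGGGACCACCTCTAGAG

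A finer choice in PCBP2 was the pair of acceptors 12 bases apart at positions 53462481 and 53462493. Use of the upstream acceptor, which adds 12 bases to the exon, was 47.6, 49.3 and 49.1% in shCtrl and 51.3, 49.8 and 51.5% in shPCBP1. The groups lay apart, with a mean difference of 2.19 points, and no test across all genes was made for this choice. Their closest values were 49.3% in shCtrl and 49.8% in shPCBP1. How often such acceptor pairs lie apart over all genes was not counted. The window (chr12:53462441-53462520, plus strand, hg38) shows 40 intron bases in lower case and then, in capitals, the exon from its upstream acceptor, whose first 12 bases are the optional ones. For the acceptors 3 bases apart, at 53468777 and 53468780, use of the upstream site was 66.6% ± 1.30 in shCtrl and 67.4% ± 0.414 in shPCBP1 (SD, n = 3 each), and the groups overlapped.

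PCBP2 tandem acceptor: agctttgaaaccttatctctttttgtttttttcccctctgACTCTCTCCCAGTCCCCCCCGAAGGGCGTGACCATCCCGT

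HNRNPK was dominated by fewer transcripts than PCBP2. In shCtrl HNRNPK-202 held 45.0% ± 0.465, HNRNPK-205 25.9% ± 0.812, HNRNPK-231 9.38% ± 0.404 and HNRNPK-206 8.87% ± 0.288 of the HNRNPK TPM (SD, n = 3 each). The 4 together held 89.2% of the gene over all libraries, and none has a 31-base stretch of its own. HNRNPK-202 and HNRNPK-205 differ in the first exon and in the acceptor of the last exon. HNRNPK-206 skips a 72-base cassette exon, and HNRNPK-231 begins at a separate first exon.

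HNRNPK-202 had 187, 184 and 182 TPM in shCtrl and 222, 211 and 204 TPM in shPCBP1. HNRNPK-205 had 106, 105 and 107 TPM against 125, 123 and 116 TPM. For both, every KD library was above every control library, but neither passed over all transcripts (log2 fold changes 0.20, SE 0.0359 and 0.20, SE 0.0360, limma adjusted p = 0.0642 and 0.0691). HNRNPK-231 was lower in shPCBP1, with 41.3, 37.0 and 36.9 TPM against 20.8, 16.8 and 27.4 TPM (log2 fold change -0.85, SE 0.171, limma adjusted p = 0.0884). None of the 21 HNRNPK transcripts tested passed on its level. With DESeq2 on transcript counts in place of limma on TPM, HNRNPK-231 passed as lower (adjusted p = 3.82e-05), and HNRNPK-202, HNRNPK-205 and HNRNPK-206 passed as higher (DESeq2 adjusted p = 0.000438, 0.00240 and 0.00190). At a mean of at least 1 TPM, HNRNPK-231, HNRNPK-202 and HNRNPK-205 passed in the limma fit as well, in the same directions, and HNRNPK-206 did not.

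As a share, HNRNPK-231 took 9.83, 9.07 and 9.24% of HNRNPK in shCtrl and 4.55, 3.82 and 6.31% in shPCBP1. This was the largest difference in share among the HNRNPK transcripts, -4.48 percentage points, with groups that did not overlap, as for 17.9% of all transcripts tested (8.72% higher and 9.21% lower). The unadjusted p was 0.00203 and the limma adjusted p over all transcripts 0.161. The shares of HNRNPK-202 (47.8% ± 0.877 in shPCBP1), HNRNPK-205 (27.4% ± 0.563) and HNRNPK-206 (9.13% ± 0.221, SD, n = 3 each) did not pass either (limma adjusted p between 0.527 and 0.870). Protein-coding transcripts made up 97.2% ± 0.405 of HNRNPK in shCtrl and 97.4% ± 0.260 in shPCBP1 (SD, n = 3 each, limma adjusted p = 0.701).

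Grouped by first exon, also a grouping added after the data were seen, the HNRNPK first exon ending at position 83980153 of chromosome 9 held 53.5, 54.5 and 54.1% in shCtrl and 57.9, 57.1 and 56.8% in shPCBP1. The groups lay apart, as for 8.33% of all first exons in that direction (9.39% in the other), without passing (log2 ratio 0.19, SE 0.0800, limma adjusted p = 0.471). The first exon ending at 83980503 held 31.4% ± 0.683 and 32.8% ± 0.799 (SD, n = 3 each, limma adjusted p = 0.728). The first exon ending at 83979601, that of HNRNPK-231, went the other way, from 9.38% ± 0.404 to 4.90% ± 1.28 (SD, n = 3 each), which was the largest difference in the log2 ratio among these 3 (-1.04, SE 0.198, unadjusted p = 0.00186, limma adjusted p = 0.195). No first exon of a member passed, beside 0.173% of 39817 first exons. The corresponding first exons of PCBP2, ending at 53452376 and 53454869, held 68.3% ± 0.849 and 24.5% ± 0.576 in shCtrl and 66.6% ± 0.833 and 26.1% ± 1.16 in shPCBP1 (SD, n = 3 each, limma adjusted p = 0.684 and 0.685).

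The last exon of HNRNPK has acceptors 60 bases apart, which give proteins with different C-terminal ends. Of transcripts that joined this exon to the exon ending at position 83970162, the upstream acceptor (83969440) was used in 53.2, 52.8 and 53.4% in shCtrl and in 48.7, 49.2 and 50.3% in shPCBP1. The groups lay apart, with a mean difference of -3.71 percentage points against SDs of 0.310 and 0.800 (n = 3 each). For acceptor pairs the share that lies apart over all genes was not counted. Over the whole gene, last exons from the downstream acceptor (83969380) made up 45.7% ± 0.308 in shCtrl and 49.4% ± 0.508 in shPCBP1 (SD, n = 3 each). The groups lay apart, as for 8.56% of all last exons in that direction and 9.04% in the other. The log2 ratio differed by 0.21 (SE 0.0780, unadjusted p = 0.0340), which did not pass over 38397 last exons (limma adjusted p = 0.433). The protein isoforms regroup much of the same TPM, so they are no separate result. The 1392-base coding sequence from the upstream acceptor went from 36.8% ± 0.706 to 33.7% ± 0.727 and the 1389-base one from the downstream acceptor from 45.3% ± 0.213 to 48.6% ± 1.13 (SD, n = 3 each, limma adjusted p = 0.376 and 0.397). Both lay apart, as did 8.82% of protein isoforms in the lower and 10.4% in the higher direction, and neither passed. HNRNPK-231 uses the upstream acceptor and was the HNRNPK transcript whose share differed most. Its estimate enters the first exon, acceptor and isoform values alike, so their differences are not independent of one another.

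Both acceptors are printed on the minus strand of hg38, intron in lower case and coding exon bases in capitals (chr9:83969410-83969490 for the upstream and chr9:83969353-83969400 for the downstream acceptor). The exon begins with the same 13 letters, TGTGAAGCAGTAT, after either acceptor and then differs. C or T makes up 66% of the 50 bases before the upstream acceptor and 75% of the 20 bases before the downstream one. These windows differ in length, so the percentages do not show which acceptor follows the richer C or T tract.

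HNRNPK upstream acceptor: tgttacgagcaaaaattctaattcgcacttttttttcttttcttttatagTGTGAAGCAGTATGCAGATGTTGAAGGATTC
HNRNPK downstream acceptor: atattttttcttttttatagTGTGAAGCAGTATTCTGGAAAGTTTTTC

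The 72-base cassette exon of HNRNPK, at positions 83973902 to 83973973, was included in 90.7, 90.5 and 91.1% of the TPM in shCtrl and 90.9, 90.5 and 90.3% in shPCBP1. These values overlapped, and the log2 ratio differed by -0.04 (SE 0.0877, limma adjusted p = 0.912). The exon is shown with its acceptor (chr9:83973902-83974023, minus strand, hg38) as the only HNRNPK cassette exon that entered the test.

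HNRNPK exon of 72 bases: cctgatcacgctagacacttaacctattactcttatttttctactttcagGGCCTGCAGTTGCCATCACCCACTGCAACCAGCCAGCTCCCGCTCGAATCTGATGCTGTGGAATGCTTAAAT

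**Figure D4:**
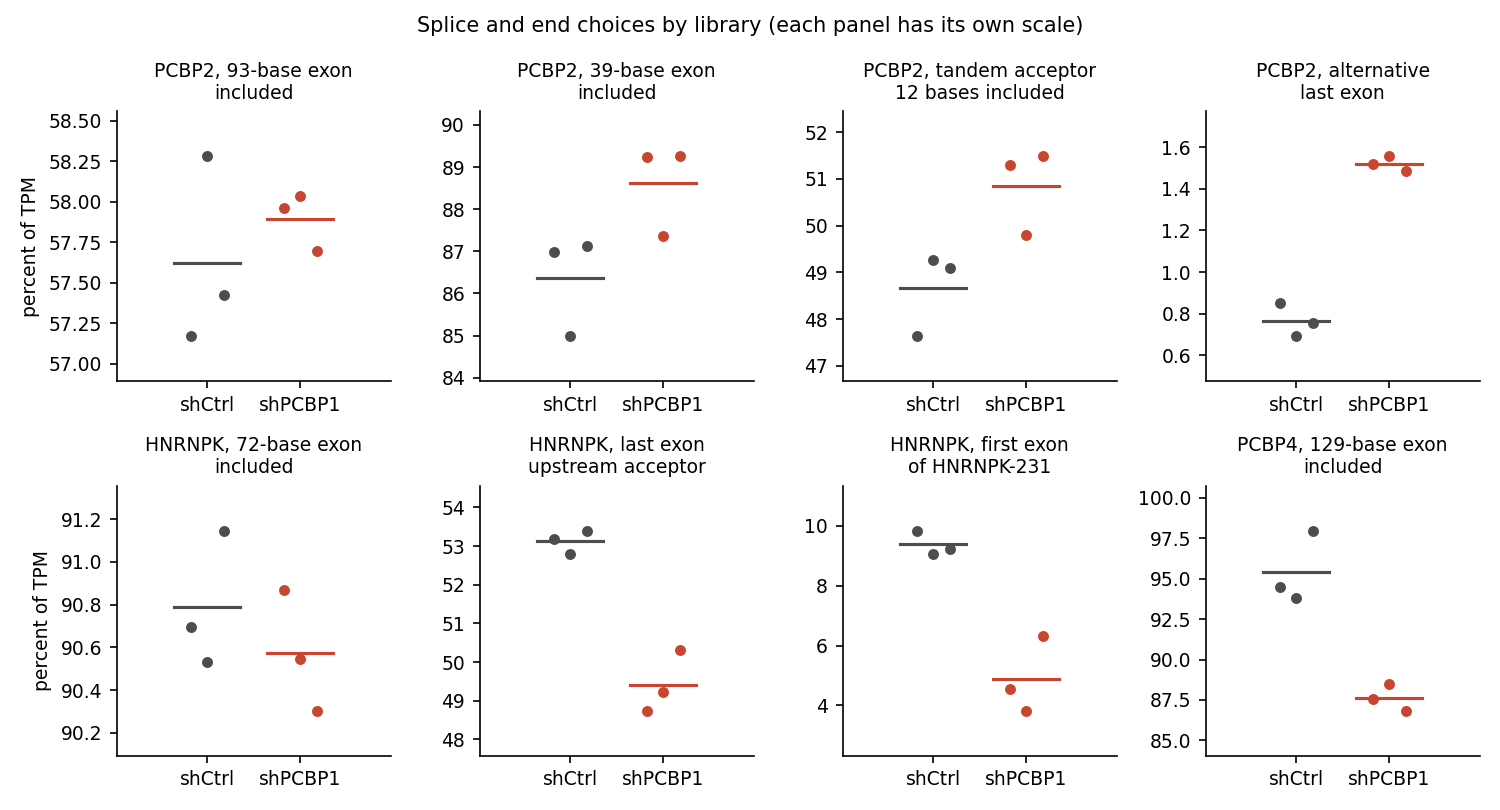
Percent of TPM for 8 splice or end choices in PCBP2, HNRNPK and PCBP4, per library, with a bar at each group mean and a separate axis in each panel. The 93-base exon of PCBP2 and the 72-base exon of HNRNPK overlap between groups, and the groups of the other 6 choices lie apart. The panels were picked after the values were seen and leave out choices that overlapped, such as the PCBP2 acceptors 3 bases apart, so the number of panels that lie apart is no count over all choices.

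PCBP4 transcripts could be read only coarsely, since the whole gene held 347 to 1025 estimated counts per library. PCBP4-202 had 64.4, 32.4 and 37.7% of PCBP4 in shCtrl and 47.6, 38.2 and 48.7% in shPCBP1 (limma adjusted p = 0.997). PCBP4-205 had 11.4, 18.8 and 17.8% against 22.5, 20.8 and 9.33% (limma adjusted p = 0.942), and PCBP4-204 was estimated at 0 in 3 of the 6 libraries and at up to 24.4%. These groups overlapped. PCBP4-203, which lacks a 129-base cassette exon, had 0, 5.97 and 1.32% in shCtrl and 8.46, 9.16 and 9.60% in shPCBP1 and lay apart (limma adjusted p = 0.374).

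The 129-base exon itself (chromosome 3, positions 51959895 to 51960023) was included in 94.5, 93.8 and 98.0% in shCtrl and in 87.5, 88.5 and 86.8% in shPCBP1. Every KD library was below every control library, as for 11% of all cassette exons in that direction. The log2 ratio differed by -1.33 (SE 0.423, unadjusted p = 0.0176), which did not pass over all exons (limma adjusted p = 0.311). Of 14 PCBP4 transcript shares tested none passed, and protein-coding transcripts made up 91.0% ± 1.44 of PCBP4 in shCtrl and 91.3% ± 0.851 in shPCBP1 (SD, n = 3 each, limma adjusted p = 0.954). PCBP3 was too low for its transcript shares to enter the tests.

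As a description of which genes followed the members over the 6 libraries, the protein-coding genes with the highest Pearson r of log2(normalized count + 1) were taken for each. These values mostly restate the split between 3 control and 3 KD libraries and carry no test. Among the genes nearest to PCBP1 were ACY1, an aminoacylase (r = 0.9991), and ASL, argininosuccinate lyase (r = 0.9988). PCBP2 was nearest to RAP1GAP, CORO1B and SLX1B, and PCBP4 to SLC22A5, ARRB1 and MED14. HNRNPK was nearest to ELAVL1 (r = 0.998) and HNRNPL (r = 0.997), both RNA-binding proteins, and to RBM23 (r = 0.996).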

How the data were processed

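Poly-A RNA of 6 K562 libraries, 3 shCtrl and 3 shPCBP1, was quantified per transcript by the authors with Salmon 1.10.2, and the labels name hg38 as the build. The deposited estimated counts (NumReads) were not normalized, and the deposited TPM values were scaled by the authors' software to effective transcript length and library total. How read strand was set was not given in the sources used here. Transcripts were matched to GENCODE 44, and 251612 of 252045 were placed, while the rest held 0.136 to 0.147% of counts and were left out.

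Counts were summed per gene, rounded and, at a summed count of at least 10, tested with DESeq2 1.42.0 (two-sided Wald test, group as the only term, Benjamini-Hochberg adjusted p under 0.05). Transcript levels were log2(TPM + 0.1) for means of at least 0.1 TPM, and shares, protein isoforms, cassette exons, first exons and last exons were log2 ratios of TPM with a pseudocount of 0.1, in genes of at least 1 TPM with a share of at least 1%. These were fitted with limma 3.58.1 (two-sided, trend), so fold changes of low transcripts are understated. R 4.3.3 and Python 3.11.15 were used, edgeR 4.0.16 gave an alternative, and intervals are at 95%. The gene total, transcript level and transcript share tests were tried on simulated data. The other ratios used the same fit as the transcript shares and were not simulated separately.

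Named were the members, genes overlapping them or sharing their name, and up to 3 rises and 3 falls of each list at a mean normalized count of 100 or more. Also named were the 3 genes most like each of 4 members, and transcripts with a share of at least 5% or an adjusted p under 0.05. Some genes that these rules or the marker lists name are not reported here. The members, lists and rules were chosen with earlier results of these data known. Depth was 67066747 to 140522444 estimated counts, which limits PCBP3 and the PCBP4 isoforms most. Replicate libraries of a group differed by more than sampling noise (chi-square per degree of freedom 6.19 to 15.1).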

Additional observations from a re-analysis of the deposited data

How the results depend on the processing

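The 4 member genes with an adjusted p under 0.05 on their totals kept their direction and passed again under all 15 alternatives. Without 1 library the log2 fold changes were -2.49 to -2.42 for PCBP1, -0.25 to -0.23 for PCBP2, -0.59 to -0.49 for PCBP4 and 0.11 to 0.17 for HNRNPK. The transcript results were less stable, and the cause was not tested. The 4 member transcripts passing on level became 13 with DESeq2 on transcript counts, 9 at a mean of at least 1 TPM, 2 with no TPM filter and 1 to 2 without 1 library. The 1 passing share and the 1 passing protein isoform, both PCBP2-225, became 0 at a share of at least 5%, where PCBP2-225 is not tested, 0 with no share filter, and 0 to 0 without 1 library. Last exons, added after the data were seen, went from 0 to 1 at pseudocounts of 1 and of 0.01 TPM. The KH-domain list went from 18 passing to 11 with length offsets.

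The replicate numbers do not pair the libraries: same-numbered deviations correlated at 0.0940, -0.0203 and -0.105 over 14181 genes, and 2 of 6 libraries correlated best with their own number. With the replicate block, gene totals passing were 4297 of all genes and 4 of 4 members, and member transcript levels, shares and protein isoforms passing were 0, 0 and 0.

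Directions reversed only among differences that did not pass. PCBP4-204 had a level of -0.15, against 0.41 with DESeq2, 0.047 at a pseudocount of 1 TPM and -1.28 to 0.61 without 1 library, and a share change of 0.42 against -0.37 at a pseudocount of 0.01 TPM and -0.74 to 1.15 without 1 library. PCBP4-202 had a share change of 0.0088 against -0.018 over protein-coding transcripts only and -0.35 to 0.57 without 1 library, and PCBP4-205 -0.11 to 0.56. The protein-coding share changed by 0.037 in PCBP4 at a pseudocount of 0.01 TPM and -0.19 to 0.036 without 1 library, by -0.080 to 0.055 in PCBP2 without 1 library, and by -0.11 in HNRNPK with counts in place of TPM. The PCBP2 last exons at 53455461 and 53467221 ranged over -0.054 to 0.19 and -0.058 to 0.26.

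Calls in this paragraph are passes at an adjusted p under 0.05, whatever the size of the difference. Over all transcripts, level calls numbered 1153, against 9811 with DESeq2, 2164 at 1 TPM, 612 with no filter, 0 with the block and 305 to 544 without 1 library. Share calls numbered 241, against 132 to 170 without 1 library, 132 with no filter and 425 at a pseudocount of 0.01 TPM. Cassette exon calls numbered 70, against 203 at a pseudocount of 1 TPM, 5 with no filter and 0 to 12 without 1 library. Protein isoform calls numbered 205, against 361 at a pseudocount of 1 TPM, 320 at a share of at least 5%, 73 with no filter and 61 to 118 without 1 library. First exon calls numbered 69, against 138 at a pseudocount of 0.01 TPM, 108 with counts in place of TPM, 42 with no filter and 31 to 84 without 1 library. Last exon calls numbered 50, against 113 at a pseudocount of 1 TPM, 97 at 0.01 TPM, 87 at a share of at least 5%, 2 with the block and 32 to 59 without 1 library. Protein-coding share calls numbered 10, against 45 at a pseudocount of 1 TPM, 36 at a share of at least 5%, 2 with no filter and 0 to 5 without 1 library. The block left 0 calls in the other limma tests. Depth limits PCBP3 and the PCBP4 isoforms most.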

Other observations

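Genes around PCBP4 on chromosome 3 were partly lower in the KD libraries, beside 13.5% of all genes that passed as lower. ABHD14B (51968510 to 51983409) had a log2 fold change of -0.72 (SE 0.0586), PCBP4 -0.55, and ACY1 (51983340 to 51989197) -0.65 (DESeq2 adjusted p = 1.98e-42). ABHD14A (-0.24, DESeq2 adjusted p = 0.227) and the readthrough gene ABHD14A-ACY1 (-0.18, DESeq2 adjusted p = 0.611) did not pass. ACY1 and the readthrough gene were looked up here after values at this locus had been seen, and whether these genes differ from one another was not tested. ACY1 had also been picked above for its likeness to PCBP1 over the same 6 libraries, so its lower level is no separate finding.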
